A study of Oryctolagus cuniculus with 6 samples.

Results

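The genes described here had a higher signal in grafted than in ungrafted skull defects of rabbits on each of 3 sampling days. They were selected on that difference. A feature on the array (a named gene, or a transcript or probe without a gene symbol) was a member when its brightest probe was well above background on all 6 arrays and its signal with the graft was at least 1.5-fold that without it on days 3, 5 and 7 alike. All 6 arrays had 18134 features well above background, of which 134 met this rule (0.739%). Among them, 11 were set aside because the rule leaves them out by name (LPL, EGLN3, MMP12, LGALS3, LGALS4, CXCL8, IL1RN, TNF, PTGS2, CD14 and a transcript described as ENA-78, another name of CXCL5). The 123 members left comprised 48 genes with a symbol, 12 transcripts known only by a description, 13 expressed sequence tags, 9 Ensembl transcripts without a description and 41 probes without any annotation. In the opposite direction 8 features were at least 1.5-fold lower on all 3 days.

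The tissue was newly formed tissue from circular parietal bone defects 5 mm wide in male New Zealand White rabbits of 4 months. The grafted group, called HPD, had defects filled with 0.2 g of human particulated dentin, which is ground tooth dentin of human origin. Control defects stayed unfilled. Per the labels' protocols, 24 rabbits had 4 defects each, with HPD in the 2 on the right, so the Control defects lay in animals that also carried grafts. There was 1 array per treatment on each of days 3, 5 and 7, with no replicate, and the labels do not say whether animals were pooled for an array. Of 10 osteoblast markers, 9 were on the array and all 9 were well above background on all 6 arrays, as were 18134 of all 23365 features. Their summed level, on a linear scale, lay between 564 and 1600. On days 3, 5 and 7, 1, 0 and 6 of the 9 were at least 1.5-fold higher with HPD (12.2%, 14.3% and 6.55% of all features). Lower by as much were 0, 5 and 0 (5.65%, 5.64% and 3.12% of all features). The part of osteoblasts in the members' differences was not tested. In bulk tissue, fewer cells of a type and less RNA per cell cannot be told apart.

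Except for summed levels, all levels below are log2 intensity minus the array's 75th percentile, so 0 is that percentile. Differences are HPD minus Control on the log2 scale. Summed levels add the markers' levels on a linear scale, so the brightest probes weigh most in them. Values in a series of 3 stand in the order day 3, day 5 and day 7. Because the difference between HPD and Control chose the members, it is given as a description, without a test. A level of one probe cannot be set against that of another.

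By the smallest of their 3 differences KMO and AVP led the named members, and they belong to unrelated pathways. By the mean of the 3 differences CA4 (2.33), SCGB1D (1.96) and ARG1 (1.59) stood above KMO (1.57), and FOS (1.54) also stood above AVP (1.39). KMO encodes kynurenine 3-monooxygenase, a mitochondrial enzyme that hydroxylates kynurenine on the route by which tryptophan is broken down towards quinolinic acid and NAD. IDO1 and TDO2 open that route, and it is well known in activated macrophages and microglia. AVP encodes the precursor of arginine vasopressin, neurophysin II and copeptin, and is best known as a hormone gene of hypothalamic neurons. MT3 is a metallothionein, whose signal lay well above the 75th percentile of every array. Metallothioneins are small cysteine-rich proteins that bind zinc and copper.

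The probe sequences of these genes are shown because the values of the leading members rest on them. The pair of KMO probes and an unannotated member probe lie end to end on chromosome 16 of oryCun2, plus strand (second KMO probe chr16:31515545-31515604, KMO chr16:31515605-31515664, unannotated probe chr16:31515665-31515727). Joined in this order, they have 1 reading frame of 3 without a stop triplet. Capitals mark the triplets of that frame that the boundaries between the probes split. The last probe's 60 bases are placed over 63 bases of the genome.

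KMO, second probe: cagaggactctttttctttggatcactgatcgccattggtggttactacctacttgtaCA
KMO: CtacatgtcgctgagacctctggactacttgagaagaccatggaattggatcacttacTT
A_04_P099087: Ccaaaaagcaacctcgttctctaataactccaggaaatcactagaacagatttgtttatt

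The single AVP probe lies on chromosome 4, minus strand (chr4:10059269-10059328). Read from its first base, it holds 20 triplets of which the last, in capitals, is the only stop.

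AVP: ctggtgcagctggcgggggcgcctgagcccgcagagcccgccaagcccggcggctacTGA

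The brighter MT3 probe spans 854 bases of chromosome 5, plus strand (chr5:12893705-12894558). A further member, ENSOCUT00000023383, described as the hypothetical protein LOC100343299, lies 14.61 kb further on (chr5:12909171-12909230). Capitals mark the tgc and tgt triplets, the codons of cysteine, in the frame that holds most of them, with 8 of 19 triplets in the MT3 probe and 4 of 19 in the other.

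MT3: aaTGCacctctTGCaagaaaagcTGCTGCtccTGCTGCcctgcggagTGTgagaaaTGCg
ENSOCUT00000023383: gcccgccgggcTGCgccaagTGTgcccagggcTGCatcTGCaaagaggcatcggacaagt

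KMO (ENSOCUT00000007703) stood at -0.78, -1.46 and -1.35 in Control defects and at 0.89, 0.36 and -0.13 with HPD. Every HPD array was above every Control array, also across days. The ratio was 3.18-fold on day 3, 3.52-fold on day 5 and 2.33-fold on day 7. KMO's second probe differed by 1.53, 1.62 and 1.41, and the unannotated probe that continues it by 1.58, 1.64 and 1.20. These 3 probes share a locus and are not independent measurements. As processed intensity, before scaling, KMO read 275, 146 and 121 in Control and 851, 521 and 299 with HPD. KMO thus gave a clear signal on every array, the dimmest being Control on day 7.

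Of the 12 genes listed for the kynurenine pathway, 10 were on the array and 8 were well above background on all 6 arrays, and KMO was the sole member among them. On day 3, 1 of the 8 was at least 1.5-fold higher with HPD and 2 were lower by as much, against 12.2% higher and 5.65% lower among all features. The lower genes were KYNU, which cleaves kynurenine and its hydroxylated form, at -0.78, and the aminotransferase KYAT3 at -0.93. On day 5, 3 of the 8 were higher and 0 lower (14.3% and 5.64% of all features), namely KMO, IDO1 at 1.82 and TDO2 at 0.76. On day 7, 2 of the 8 were higher and 0 lower (6.55% and 3.12% of all features), namely KMO and the aminotransferase AADAT at 0.59. With normexp, a background correction that raises dim signals before the logarithm, TDO2 differed by -0.08 on day 5 and AADAT by 0.49 on day 7, so neither was then 1.5-fold higher. IDO1 kept 1.71 on day 5, and KYNU and KYAT3 stayed lower on day 3, at -0.76 and -0.80. IDO1, the entry enzyme, differed by 0.29, 1.82 and 0.15, so that it reached 1.5-fold on day 5 alone. For KMO a difference on all days was required by the rule, so the 2 genes are not compared in this. HAAO and QPRT, which act after KMO towards NAD, differed by -0.14, 0.26 and 0.23 and by 0.40, 0.15 and 0.39.

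AVP (ENSOCUT00000001770) stood at -0.40, -1.0 and -1.12 in Control defects and at 0.79, 0.89 and -0.03 with HPD. Here too no HPD array overlapped a Control array. Its ratio was 2.28-fold, 3.72-fold and 2.13-fold. The AVP probe was the most GC-rich of the members at 76.7%, where the median over members and over all features was 45%. Among the 37 features whose probe held at least as much GC, AVP included, AVP alone met the rule, which 0.739% of all features met. The median differences of the 37 were 0.06, 0.07 and 0.32, against 0.13, 0.08 and 0.08 for all features. The part of GC content in the AVP result was not tested.

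Of the 11 genes listed for the vasopressin and oxytocin system, 7 were on the array and well above background on all 6 arrays. On each day 2 of the 7 were at least 1.5-fold higher with HPD and 0 lower by as much, against 12.2%, 14.3% and 6.55% higher and 5.65%, 5.64% and 3.12% lower among all features. AVP was always 1 of the 2, with the renal vasopressin receptor gene AVPR2 (0.67) on day 3, the oxytocin receptor gene OXTR (0.80) on day 5 and LNPEP, a peptidase that degrades both hormones, on day 7 (0.61). With normexp these partners fell short of 1.5-fold, AVPR2 at 0.56, OXTR at 0.48 and LNPEP at 0.12. The rule required AVP to be higher on every day, so AVP is not compared with them in this. OXT, the oxytocin gene, differed by 0.40, -0.29 and 0.43. Of the neuron and hypothalamus markers, 5 of 10 were on the array and 4 well above background on all arrays. At least 1.5-fold higher on any day was 0 of the 4 (12.2%, 14.3% and 6.55% of all features). Lower by as much were 0, 1 and 0 (5.65%, 5.64% and 3.12% of all features), namely SIM1 at -1.16 on day 5. The summed level of the 4 was 4.93, 8.55 and 8.19 in Control and 5.71, 6.80 and 9.77 with HPD, and its part in the AVP result was not tested.

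**Figure D1:**
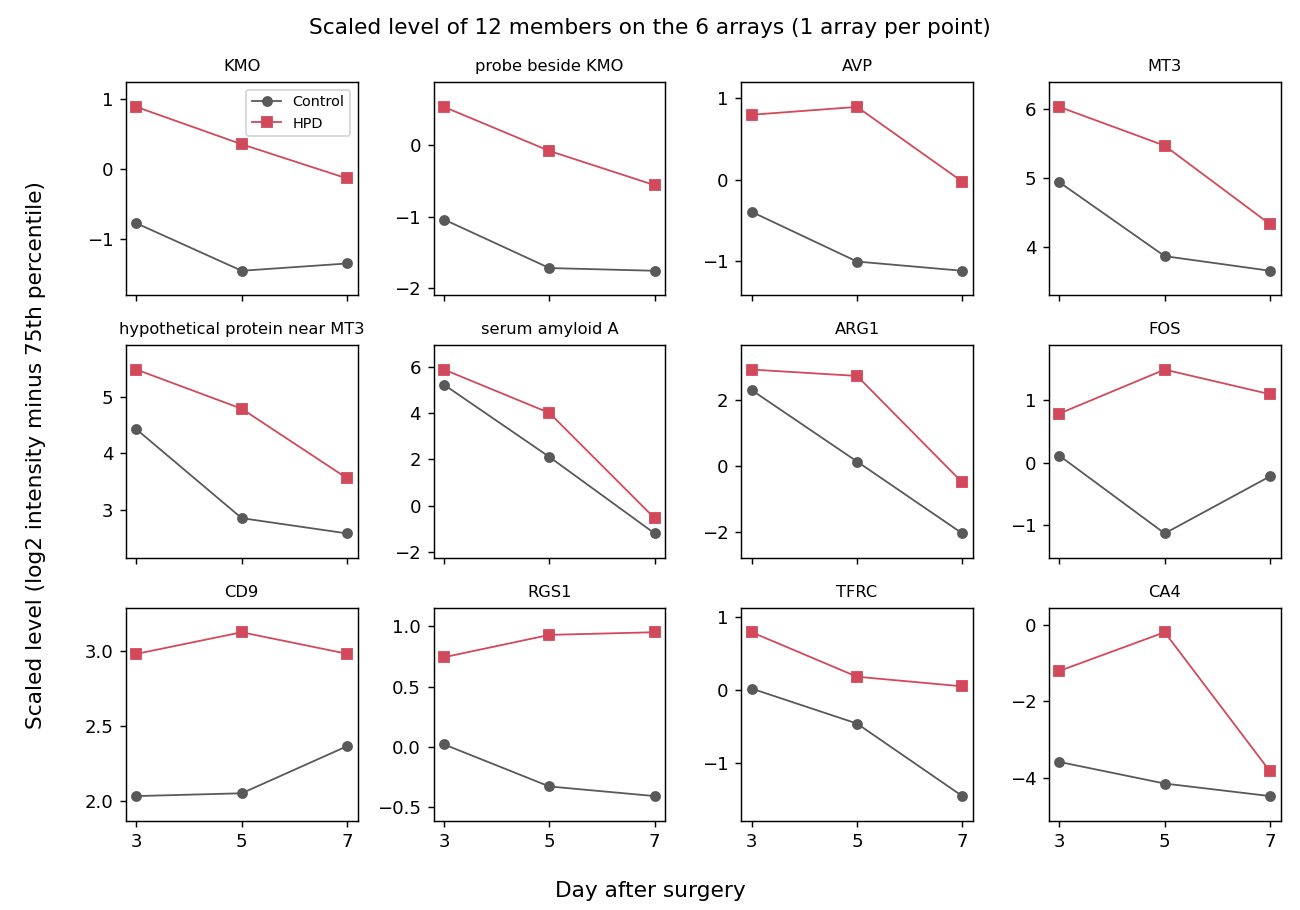
Scaled level (log2 intensity minus the array's 75th percentile, vertical axis, with its own range in each panel) of 12 members against the day after surgery, with Control in grey circles and HPD in red squares, 1 array per point. In KMO, AVP, FOS, CD9, RGS1 and TFRC every HPD array lies above every Control array, while serum amyloid A and ARG1 are so much lower on day 7 than on day 3 that the ranges of the treatments overlap.

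The metallothionein locus gave 3 members within 42.85 kb of chromosome 5. MT3 (NM_001082220) stood at 4.94, 3.87 and 3.66 in Control and 6.03, 5.47 and 4.33 with HPD, and its other probe differed by 1.35, 1.81 and 0.85. ENSOCUT00000023383 stood at 4.43, 2.85 and 2.57 in Control and 5.49, 4.79 and 3.56 with HPD. The expressed sequence tag ENSOCUT00000021102 (chr5:12936500-12936559) stood at 4.05, 2.63 and 2.38 in Control and 5.21, 4.51 and 3.50 with HPD. All 3 had their widest gap on day 5, when the ratios were 3.03-fold, 3.86-fold and 3.68-fold. No run of 20 bases was shared between these 3 probes. Cross-reaction with metallothioneins that have no probe of their own here was not tested.

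Several members encode proteins of the inflammatory response. Serum amyloid A (LOC100009168), an acute-phase lipid-binding protein, stood at 5.24, 2.11 and -1.21 in Control and 5.89, 4.01 and -0.55 with HPD. The CCL3-like chemokine (ENSOCUT00000000771), a ligand that draws monocytes and other leukocytes, stood at -1.07, -0.26 and -1.59 in Control and 0.61, 1.30 and -0.88 with HPD. GC, the plasma vitamin D-binding protein, stood at -1.70, -1.80 and -1.22 in Control and -0.97, 0.01 and -0.09 with HPD. The array's text calls the GC probe DBP, and its RefSeq accession maps to GC, whose other probe was not well above background on any array. TNFSF13B, the B-cell survival factor BAFF, stood at -2.81, -3.15 and -3.34 in Control and -1.85, -2.06 and -2.46 with HPD. Its 3 other probes were higher with HPD on all days as well, but by as little as 0.22 on day 7. Serum amyloid A was thus far above the 75th percentile on day 3 and below it on day 7, and TNFSF13B was below it on every array.

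Genes typical of myeloid and dendritic cells formed the next group. MPEG1, a pore-forming protein of macrophages, stood at -1.27, -2.38 and -2.38 in Control and -0.18, -1.63 and -1.63 with HPD, and its 4 other probes, shifted by single bases, all kept at least 1.5-fold. CD1C, which presents lipid antigens on dendritic cells, stood at -0.68, -1.28 and -2.16 in Control and 0.11, 0.38 and -1.45 with HPD. ARG1, the arginase of alternatively activated macrophages, stood at 2.30, 0.13 and -2.05 in Control and 2.92, 2.73 and -0.50 with HPD. ARG1 read lower on each later day in both arms, and on day 5, with a 6.05-fold ratio, HPD was near its day 3 level and Control was not. The 3 other ARG1 probes differed by 2.45 to 2.61 on day 5. ITGAX, the CD11c integrin chain, had the most even differences of all named members, at 0.66, 0.65 and 0.65.

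TM4SF19, a tetraspan membrane protein of osteoclasts and macrophages, stood at -4.59, -5.36 and -4.55 in Control and -3.11, -3.93 and -3.66 with HPD. PADI2, which turns arginine in proteins into citrulline, stood at -4.12, -4.69 and -4.58 in Control and -3.23, -3.75 and -3.85 with HPD. Both lay below -3 on every array, where the lowest level that counted as well above background ran from -5.57 (Control, day 3) to -4.57 (HPD, day 7). With normexp TM4SF19 differed by 0.51, 0.00 and 0.21 and PADI2 by 0.40, -0.06 and 0.12. Of the osteoclast markers, 8 of 10 were on the array and 6 well above background on all arrays, while the receptor gene TNFRSF11A was not well above background on any. On day 3, 5 of the 6 were at least 1.5-fold higher with HPD, and 0 on days 5 and 7 (12.2%, 14.3% and 6.55% of all features). Lower by as much were 0, 1 and 0 (5.65%, 5.64% and 3.12% of all features), namely ACP5 at -0.62 on day 5. The summed osteoclast level was 103, 226 and 277 in Control and 194, 198 and 252 with HPD, and its part in the members' differences was not tested.

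Of the macrophage markers, 7 of 12 were on the array and 6 well above background on all arrays, with 1, 2 and 0 of the 6 at least 1.5-fold higher on days 3, 5 and 7 (12.2%, 14.3% and 6.55% of all features). The summed macrophage level was 14.2, 7.95 and 9.46 in Control and 17.1, 12.6 and 9.62 with HPD. The neutrophil markers, 7 of 12 on the array and all 7 well above background, had a summed level of 1430, 215 and 16.5 in Control and 517, 652 and 48.9 with HPD. That sum was lower with HPD on day 3 and higher on days 5 and 7. Of the 7, 0, 4 and 4 were at least 1.5-fold higher on days 3, 5 and 7, against the same shares of all features. Lower by as much were 5, 0 and 0 (5.65%, 5.64% and 3.12% of all features). Each marker of both lists that was on the array was well above background on at least 1 array. The part of macrophages and neutrophils in these members' differences was not tested.

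Of the arginine and polyamine list, 10 of 13 genes were on the array and well above background on all arrays. With ARG1 counted, 2, 3 and 2 of the 10 were at least 1.5-fold higher on days 3, 5 and 7, against 12.2%, 14.3% and 6.55% of all features. Apart from ARG1, ARG2 at 0.95 on day 3, SAT1 at 0.99 and AZIN1 at 0.63 on day 5, and NOS2 at 0.60 on day 7 were at least 1.5-fold higher with HPD, and the transporter SLC7A2, at -0.96 on day 5, was lower. With normexp ARG2 on day 3 and NOS2 on day 7 differed by 0.38 and 0.47, both short of 1.5-fold. The inducible nitric oxide synthase NOS2, which uses the same substrate as ARG1, differed by 0.19, 0.36 and 0.60.

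Lymphoid genes were also among the members. IL7R, the interleukin-7 receptor of T cells and their precursors, stood at -0.41, -0.79 and -0.57 in Control and 0.76, -0.10 and 0.07 with HPD. POU2AF1, a transcriptional coactivator of B cells, stood at -3.79, -5.12 and -4.48 in Control and -3.10, -3.80 and -3.0 with HPD. A rearranged immunoglobulin heavy chain (M77057) differed by 0.83, 0.73 and 0.95. The summed T cell level (7 of 8 markers well above background on all arrays) was 6.07, 3.02 and 2.67 in Control and 5.07, 5.34 and 3.33 with HPD. That of B cells (3 of 6) was 4.73, 3.60 and 3.62 in Control and 4.13, 5.17 and 4.76 with HPD. On days 3, 5 and 7, 0, 5 and 1 of the 7 T cell markers were at least 1.5-fold higher with HPD. Of the 3 B cell markers 0, 1 and 0 were (12.2%, 14.3% and 6.55% of all features). Lower by as much were 1, 0 and 0 in each list (5.65%, 5.64% and 3.12% of all features). With normexp, CD3E, LCK and CD79B fell short of 1.5-fold on day 5, at 0.06, 0.19 and 0.44. CD3D, CD3G and CD5 kept it, at 0.70, 0.94 and 0.83. The part of T and B cells in the members' differences was not tested.

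RGS1 and CD9 had nearly level signals over time with HPD. RGS1, which shortens signalling from chemokine receptors in lymphocytes and macrophages, stood at 0.02, -0.33 and -0.41 in Control and 0.74, 0.93 and 0.95 with HPD. The array describes its probes as RGS3-like, and RefSeq names the locus RGS1. All 3 other RGS1 probes kept at least 1.5-fold on every day. CD9, a tetraspanin of exosomes, platelets and many other cells, stood at 2.03, 2.05 and 2.37 in Control and 2.98, 3.12 and 2.98 with HPD. Across days the 3 HPD arrays of CD9 lay within 0.14 of each other.

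Several members act in transcription, in chromatin or in signalling to transcription factors. FOS, a subunit of AP-1, stood at 0.11, -1.13 and -0.22 in Control and 0.79, 1.49 and 1.1 with HPD, a ratio of 1.60-fold, 6.16-fold and 2.49-fold. ATF3, an AP-1 and stress response factor, stood at -4.89, -3.92 and -3.65 in Control and -3.02, -3.0 and -2.91 with HPD. On this scale the HPD arrays of ATF3 were nearly level over time, and the gap narrowed as Control stood higher on each later day. As processed intensity, before scaling, ATF3 read 15.8, 26.6 and 24.6 in Control and 56.4, 50.7 and 43.6 with HPD. ATF3 was dim, and its mean difference of 1.18 fell to 0.32 with normexp. NR4A2, an orphan nuclear receptor induced within minutes of stimulation, differed by 0.59, 0.67 and 1.0 and was the member nearest to the threshold among named genes. IKBKB, the kinase that frees NF-kB from its inhibitor, differed by 0.82, 0.72 and 0.64, and HIVEP3, a zinc finger protein that binds NF-kB motifs, by 0.80, 0.60 and 0.98. CHD7 and MBD5, both chromatin proteins, differed by 0.73, 0.80 and 0.61 and by 0.96, 0.79 and 0.60.

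Transport and metabolic enzymes were spread over many pathways. TFRC, the transferrin receptor that brings iron into cells, stood at 0.02, -0.46 and -1.46 in Control and 0.79, 0.18 and 0.05 with HPD, and its other 2 probes followed it to within 0.10 on each day. On the list for oxidative stress and iron, all 12 genes on the array were well above background on all arrays, and on each day 2 of the 12 were at least 1.5-fold higher, against 12.2%, 14.3% and 6.55% of all features. Beside TFRC these were TXNRD1 (0.63, day 3), the ferritin heavy chain gene FTH1 (0.77, day 5) and ceruloplasmin, CP (0.72, day 7). With normexp TFRC differed by 0.50 on day 5, under 1.5-fold. GCLC at -0.63 and GCLM at -1.13, which together make glutathione's precursor, were lower by as much on day 3, as was CP at -1.02 on day 5.

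CA4, a membrane-bound carbonic anhydrase, stood at -3.58, -4.15 and -4.48 in Control and -1.20, -0.19 and -3.83 with HPD. Its 15.55-fold ratio on day 5 was the widest of any member on any day, and on day 7 it was 1.57-fold. With normexp CA4 differed by 1.45, 2.01 and 0.21, and on day 5 it then stood behind ARG1 at 2.45. ACE, the angiotensin-converting enzyme, stood at -0.14, -1.41 and -2.20 in Control and 0.74, -0.79 and -1.58 with HPD. Of its 5 other probes, 4 start within 4 bases of the one used, and 1 of these 4 differed by -0.50 on day 7. The remaining ACE probe, placed elsewhere in the gene and well above background on all arrays, differed by -0.06, 0.33 and 0.08. ENPP1, which makes the mineralization inhibitor pyrophosphate, stood at -0.46, -0.62 and -0.71 in Control and 0.40, 0.33 and -0.08 with HPD.

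GNE, which makes sialic acid, stood at -3.55, -2.89 and -2.05 in Control and -2.56, -1.80 and -1.21 with HPD, and its other probe differed by 0.14, -0.50 and -0.08. PON1, a lipid-protecting lactonase of plasma, stood at -3.84, -5.29 and -4.13 in Control and -3.02, -4.08 and -3.18 with HPD. The 2 other PON1 probes, each well above background on 5 arrays, differed by -0.55 and -0.22 on day 7. CYB561A3, an ascorbate-dependent reductase of lysosomes, stood at -4.17, -4.05 and -3.96 in Control and -3.45, -3.28 and -2.63 with HPD. XPR1, the phosphate exporter, differed by 0.84, 0.66 and 1.08. The deubiquitinase gene USP36 stood at -3.82, -4.70 and -4.82 in Control and -3.11, -3.49 and -2.56 with HPD, against differences of its 4 other probes between 0.04 and 0.39 on day 3, 0.44 and 0.93 on day 5, and -0.42 and 0.38 on day 7. MGAT4D, a glycosyltransferase-like gene, stood at -5.33, -5.25 and -4.89 in Control and -3.94, -4.50 and -3.88 with HPD.

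Further members are known mainly from nervous, glandular or sensory tissue. NTS, the neurotensin precursor, stood at -2.39, -2.02 and -3.65 in Control and -0.70, -0.99 and -2.95 with HPD. SCGB1D, a secretoglobin called lipophilin BL on the array, stood at -4.84, -5.30 and -3.89 in Control and -3.22, -4.40 and -0.53 with HPD. The 10.27-fold ratio of SCGB1D on day 7 was carried by 1 of its 5 probes, since the other 4 differed by 0.15 to 0.68 that day. With normexp the SCGB1D probe used differed by 0.57, -0.09 and 1.80. A related secretoglobin, lipophilin CL2 (LOC100008795), was a member at 2.02, 0.88 and 1.2, and of its 9 other probes 1 was higher on all days and well above background on all arrays.

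NYAP2, a neuronal signalling adaptor, stood at -4.02, -3.54 and -3.92 in Control and -2.65, -2.67 and -2.67 with HPD. ARPP21, a cyclic AMP-regulated phosphoprotein of striatal neurons, stood at -4.14, -4.90 and -4.15 in Control and -3.24, -3.76 and -3.43 with HPD. The other ARPP21 probe, well above background on 5 arrays, differed by 0.36, -0.19 and -0.07. GABRA5 and GABRA3, subunits of the GABA-A receptor, differed by 0.63, 0.67 and 0.73 and by 0.60, 1.1 and 0.72. The other GABRA3 probe, well above background on 3 arrays, differed by 0.97, -0.47 and -0.01. PPP1R17, a phosphatase inhibitor known from cerebellar Purkinje cells, stood at -0.26, -0.79 and -0.76 in Control and 0.46, -0.07 and -0.01 with HPD. Its 4 other probes included 2 that overlap the one used, and 0 of the 4 was higher with HPD on all days. OR51E1, an olfactory receptor also found outside the nose, stood at -0.57, -1.92 and -0.85 in Control and 0.15, -0.28 and -0.07 with HPD, but the probe adjoining it was not well above background on any array. The 4 olfactory receptor-like transcripts among the unnamed members had mean levels between -3.49 and -2.80.

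GPR137C, an orphan receptor-like membrane protein, stood at -2.62, -4.44 and -2.40 in Control and -1.74, -2.14 and -1.53 with HPD. The transmembrane gene TMEM116 stood at -5.01, -5.06 and -4.36 in Control and -3.60, -3.90 and -3.55 with HPD. TSPAN1, an epithelial tetraspanin, stood at -3.20, -3.41 and -2.54 in Control and -2.36, -2.70 and -1.75 with HPD. For both GPR137C and TMEM116 the other probe was not well above background on any of the 6 arrays. The 5 remaining genes with a symbol were PHF21B, FAM234B, PPEF2, CCNA1 and ASB5, with smallest differences between 0.60 and 0.66. PHF21B, a PHD finger protein, differed by 1.46, 1.35 and 0.66.

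**Figure D2:**
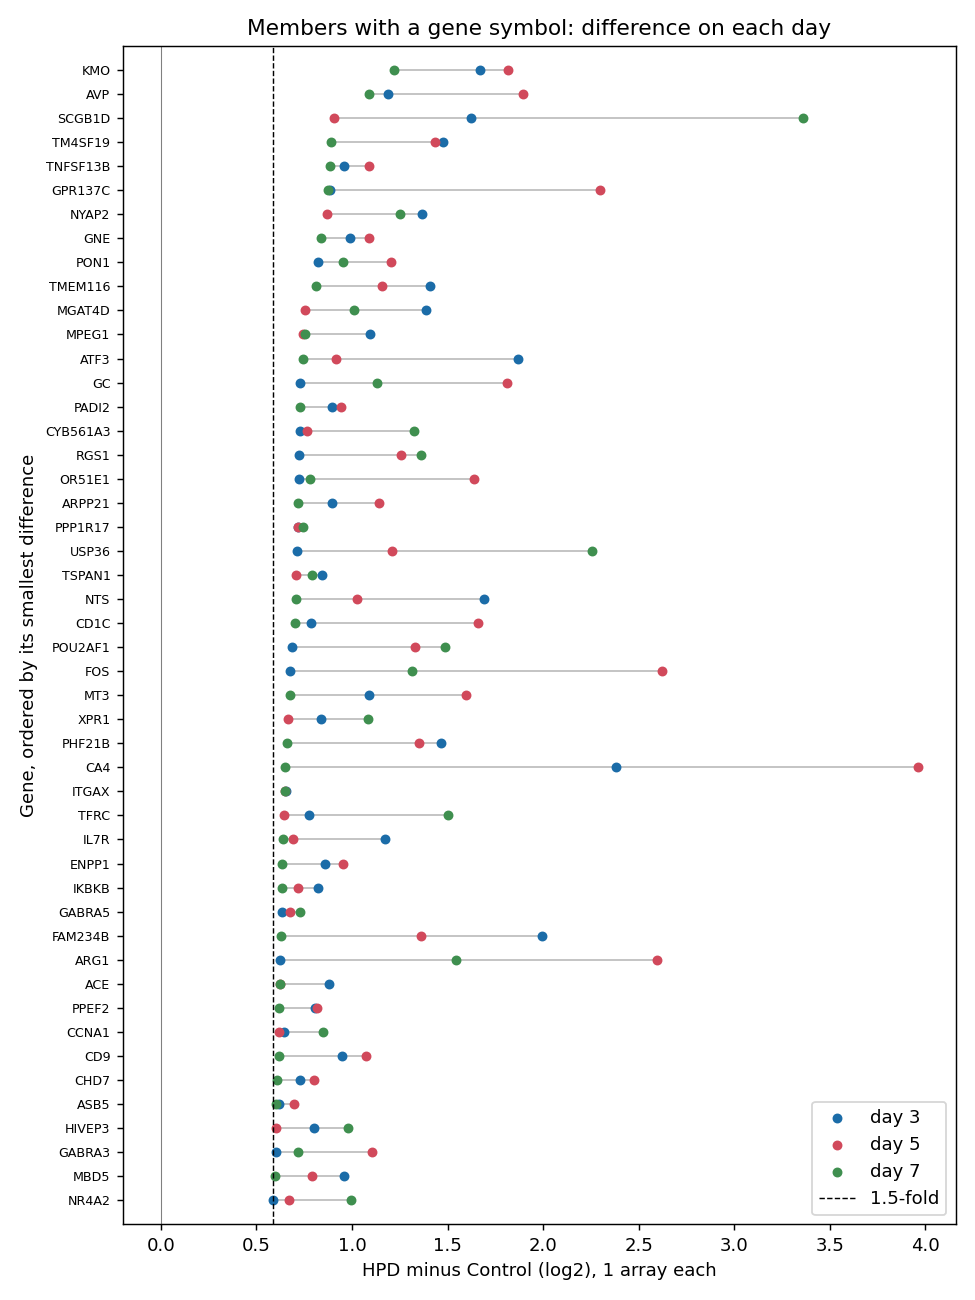
HPD minus Control difference (log2, horizontal axis) of the 48 members with a gene symbol, ordered by their smallest difference, with day 3 in blue, day 5 in red and day 7 in green, 1 array of each treatment per day. The dashed line is the 1.5-fold threshold that chose the genes, so no point can lie left of it, and CA4 reaches furthest right with 3.96 on day 5.

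The members without a gene symbol held some of the widest differences. The highest smallest difference of all 123 was that of probe A_04_P032457, which has no annotation and no position, with levels of 0.78, 1.95 and 3.27 in Control and 2.61, 3.66 and 4.54 with HPD. It read higher on each later day in both arms. Of the 123, 93 had a position on oryCun2, at 86 loci when members within 100 kb were joined. A run of 4 probes lay on chromosome 1 (chr1:113756366-113756566), 4414 to 4555 bases from the nearest named probe, that of the collagenase gene MMP1. Their day 5 ratios were 4.98-fold to 5.60-fold, and those of days 3 and 7 were 1.88-fold to 2.26-fold. MMP1 itself differed by 0.75, 0.92 and 0.48. ENSOCUT00000012309, an undescribed transcript 5969 bases from the C-type lectin gene CLEC4E, differed by 0.99, 1.72 and 1.13. All its 4 other probes were at least 1.5-fold higher on every day, but they are shifted by single bases and are not independent measurements. CLEC4E differed by 0.81, 1.72 and 0.45.

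The probes of neighbouring genes did not always move with an unnamed member. A_04_P012027 lay 9 bases from the CHMP5 probe and differed by 1.19, 1.49 and 0.82, where CHMP5 differed by -0.23, -0.01 and -0.22. ENSOCUT00000013396 lay 685 bases from the probe of EDN1, the endothelin gene, and differed by 1.3, 1.92 and 0.59, where EDN1 differed by -0.20, 0.00 and -0.20. Of the 3 other probes of ENSOCUT00000013396, shifted by a few bases, 0 kept 1.5-fold on all days and 1 stayed above 0. On day 7 those probes differed by 0.04, -0.12 and -1.10, and they were well above background on 5, 5 and 3 arrays. A_04_P028186 matched the opposite strand of the LPL probe over 53 bases and differed by 1.21, 0.78 and 0.99. Probes A_04_P071967 and A_04_P071968, both without a position, were 96.7% identical and count as 1 source. Syndecan-4 (ENSOCUT00000009094), a heparan sulfate proteoglycan, was known by its description alone and differed by 0.61, 1.12 and 0.92.

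Among the 123 members the widest of the 3 differences fell on day 3 in 42, on day 5 in 54 and on day 7 in 27. The median difference of the members was 0.96 on day 3, 1.07 on day 5 and 0.85 on day 7, against 0.13, 0.08 and 0.08 for all features. In 69 of 123 members every HPD array was above every Control array across days, against 11.2% of all features. The rule used the same contrast, so nothing is read from these counts. At 2-fold on all days 11 members remained, of which KMO and AVP were the named ones. Just inside the threshold, a difference of 0.585, lay NR4A2, MBD5 and GABRA3 with smallest differences of 0.59, 0.60 and 0.60. Just outside lay CREB3L4, NT5E and TMEM63B with 0.58, 0.57 and 0.56.

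Most members were dim. Their median level was -2.61, against -1.47 for all features, and 78 of the 123 lay below -2. The rule was met by 1.05% of the 7398 features below -2, by 0.584% of the 5477 between -2 and 0 and by 0.456% of the 5259 at 0 or more. Dim features as a whole were also displaced towards HPD, with median differences of 0.24, 0.18 and 0.12 below -2 and of 0.00, -0.06 and -0.04 at 0 or more. With normexp, run with an offset of 50, 19 of the 123 kept 1.5-fold on all days and 101 stayed above 0. Of the 78 below -2, 0 kept 1.5-fold and 56 stayed above 0, while of the 45 brighter ones 19 kept it and 45 stayed above 0. The named genes that kept 1.5-fold were KMO, AVP, MT3, ARG1, FOS, RGS1, OR51E1 and CD9. Of the 48 named genes, 38 stayed above 0 on all days. The other 10, SCGB1D, TM4SF19, PON1, TMEM116, MGAT4D, PADI2, POU2AF1, XPR1, GABRA5 and HIVEP3, were below 0 on day 5 alone, the lowest being MGAT4D at -0.20.

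**Figure D3:**
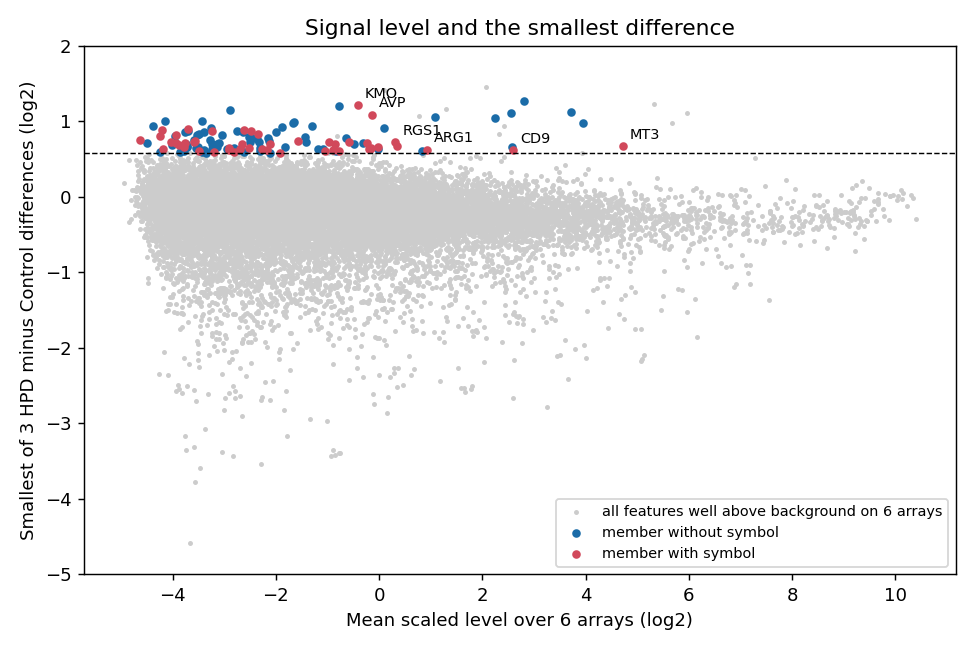
Smallest of the 3 HPD minus Control differences (log2, vertical axis) against the mean scaled level over 6 arrays (log2, horizontal axis) for all 18134 features (grey) and for members without (blue) and with a gene symbol (red). Members lie above the dashed 1.5-fold line by choice, grey points above it are the 11 set aside, and most members sit at levels below -2 with KMO, AVP and MT3 among the brighter ones.

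**Figure D4:**
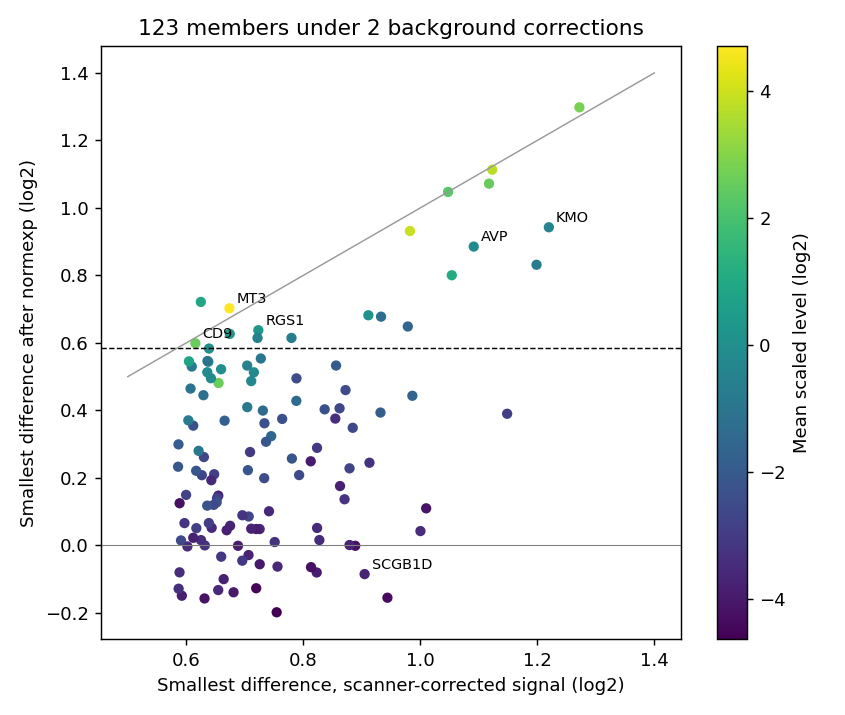
Smallest difference of each of the 123 members after normexp (log2, vertical axis) against that from the scanner's own background correction (log2, horizontal axis), coloured by mean scaled level, with equality as a grey line and 1.5-fold as a dashed line. Bright members such as MT3 and CD9 lie near equality, and dark points, the dim members, lie near 0.

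Other probes of the same gene gave a further view of 44 members. Of their 114 other probes, 66 were well above background on all arrays, and of these 31 kept at least 1.5-fold on all days and 51 stayed above 0. Many such probes overlap the one used and share its sequence. Of the 28 named members with over 1 probe, 19 had another probe well above background on all arrays. Every such probe stayed above 0 on all days in 13 of the 19, including KMO, MT3, ARG1, ATF3, MPEG1, RGS1, TFRC, NTS and TNFSF13B. None did in 4, which were PPP1R17, GNE, MBD5 and GABRA5, and some did in 2, ACE and USP36. With dimmer probes counted as well, 10 of the 28 had no other probe above 0 on all days. These were PPP1R17, GNE, MBD5, PON1, ARPP21, GABRA3, GC, GPR137C, OR51E1 and TMEM116.

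**Figure D5:**
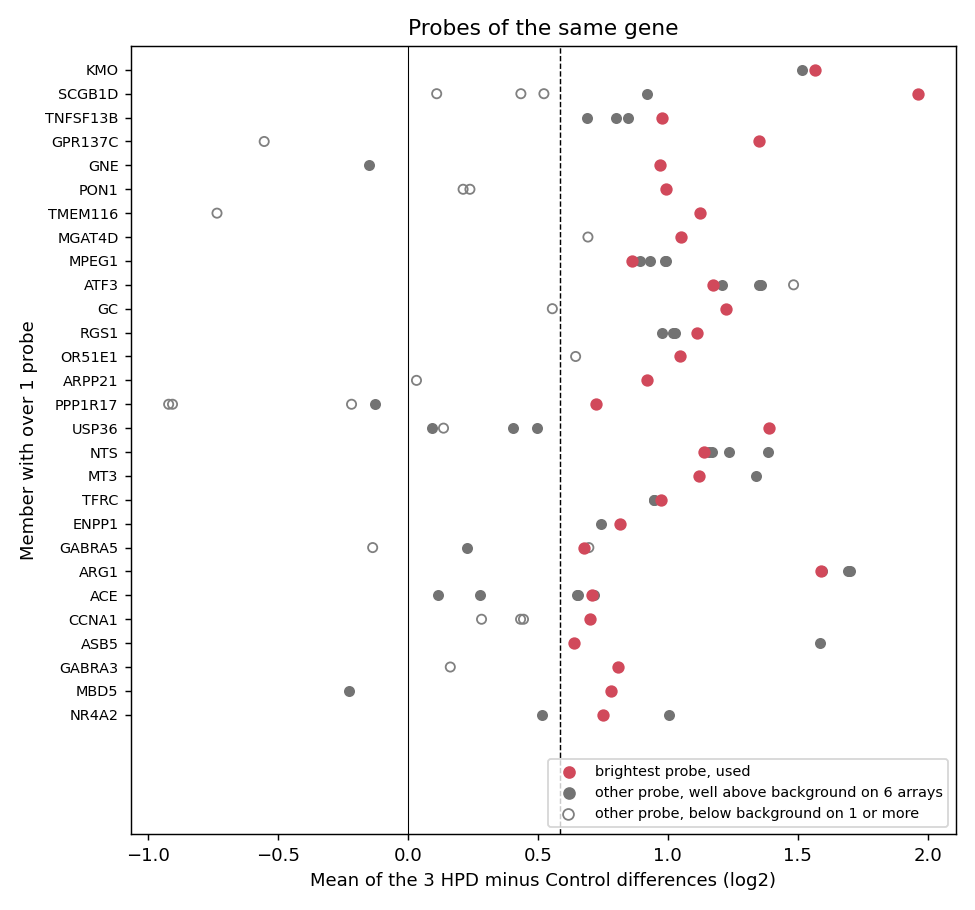
Mean of the 3 HPD minus Control differences (log2, horizontal axis) of every probe of the 28 named members with over 1 probe, with the brightest probe in red. Other probes well above background on all arrays are in filled grey, and those not well above background on at least 1 array are open circles. Probes of KMO, RGS1, TFRC and MPEG1 lie close together, while those of PPP1R17, GNE and MBD5 lie on both sides of 0.

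Change with time was not part of the rule and was tested with limma over all 6 arrays, with day and treatment as additive terms and Benjamini-Hochberg adjustment over the 18134 features. Serum amyloid A was the 1 member called, which differed between day 7 and day 3 by -6.45 ± 0.36 (SE, log2 scale, limma adjusted p = 0.0469), and it was lower in both arms. That p ran from 0.005 to 0.3589 over the alternatives, and without an array of day 7 it was 0.3589 (Control left out) or 0.2598 (HPD left out). For day 7 minus day 3, 5 of all features were called (0.0276%), and at an unadjusted p under 0.05 stood 21 members higher and 29 lower on day 7 (40.7% of members and 22.9% of all features). For day 7 minus day 5, 0 of 123 members and 0 of all features were called (0.0%), with 46 members higher and 18 lower on day 7 at an unadjusted p under 0.05 (52.0% of members and 8.83% of all features). For day 5 minus day 3, 0 of the members and 1 of all features were called (0.00551%), with 16 members higher and 43 lower on day 5 at an unadjusted p under 0.05 (48.0% of members and 18.0% of all features). The spread in this fit holds the disagreement of the HPD effect between days, which the rule limits in members, so these unadjusted counts are not independent of the choice. Both arrays of day 3 shared a slide and those of days 5 and 7 another, so day 3 and slide cannot be told apart. The arrays of a day may also share rabbits, so the spread may lack variation between rabbits and the p-values may be too small.

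Not called were ARG1, which differed between day 7 and day 3 by -3.89 ± 0.47 (SE), ACE by -2.19 ± 0.17 and MT3 by -1.49 ± 0.26, with limma adjusted p-values of 0.0819, 0.0704 and 0.0894. GNE went the other way, at 1.42 ± 0.16 with a limma adjusted p of 0.0819. KMO differed by -0.80 ± 0.21 and AVP by -0.77 ± 0.25 (limma adjusted p = 0.132 and 0.176), and CD9 by 0.17 ± 0.19 (limma adjusted p = 0.625). Of the 8 kynurenine genes and the 7 vasopressin and oxytocin genes, 0 were called by limma in any day contrast. At an unadjusted p under 0.05 stood 2 and 3 of them between days 7 and 3, 1 and 2 between days 5 and 3, and 1 and 0 between days 7 and 5.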

How the data were processed

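Total RNA (0.2 μg per array) was purified on columns, amplified and given Cy3 dye, per the labels' protocols. The deposited intensity of each spot came, per the file headers, from Agilent Feature Extraction 10.5.1.1 on a rabbit array designed on oryCun2, background-subtracted and detrended within each array. Each array held 43803 spots that were not controls. Between 78.1% and 86.4% of them were well above background and 0 were saturated, and the number of arrays limits the precision.

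Processed intensity was taken to log2 and the array's 75th percentile subtracted. Marked outlier spots were left out, which removed 41 probes. Probes were named through the array's columns and a RefSeq gene table (assembly mOryCun1.1, names only), which gave 22634 probes a symbol, 21 several and left the rest without. The brightest probe stood for a gene. Day contrasts were fitted with limma 3.58.1 in R 4.3.3 (additive terms for day and treatment, 2 residual degrees of freedom, 2.88 from the prior), and the fit was tested on simulated data. With 1 array per treatment and day, its spread holds array noise, which may be technical. It also holds any difference of the HPD effect between days. Because every rabbit had grafts as well as unfilled defects, the arrays of a day may share rabbits. Variation between rabbits may then be missing from this spread, and standard errors and p-values of day contrasts may be too small. Python 3.11.15 with matplotlib 3.10.9, numpy 2.4.6 and pandas 2.3.3 made the tables and figures.

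The members, gene lists and rules were chosen with earlier results of these data known. Array values were due for the 24 symbol-bearing members with the highest smallest difference and for members of the lists. The others given with array values (among them MT3 and its neighbours, FOS, CD9, CA4, ACE, ENPP1, IL7R, POU2AF1, serum amyloid A and the CCL3-like gene) were chosen after their values were seen. Alternatives were normexp, quantile and median scaling, the mean of all probes, outlier spots kept, other filters and folds, no treatment term and each day or array left out.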

Additional observations from a re-analysis of the deposited data

How the results depend on the processing

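The rule gave 123 members with the main setting and 20 with normexp, 76 with quantile normalization, 57 with median scaling, 107 with the mean of all probes, 123 with outlier spots kept, 165 with the filter at 3 of 6 arrays and 234 with no filter. It gave 11 at 2-fold, 642 at a looser fold, and 360, 295 and 594 without day 3, day 5 and day 7. Of the main members, 19, 73 and 57 were among those of normexp, quantile and median scaling. Under quantile and median scaling all 123 stayed above 0 on all days. Median scaling moved the median difference of all features on day 3 from 0.13 to -0.05 and that of the members from 0.96 to 0.78. The mean difference of PPP1R17 reversed to -0.29 with the mean of all its probes. The other 47 named members kept the sign of their mean under all 5 alternative signals.

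Calls for day 7 minus day 3 numbered 5, and 822 with normexp, 12 with quantile normalization, 1 with median scaling, 9 with the mean of all probes, 1 with outlier spots kept, 1 with the filter at 3 arrays, 0 with no filter and 523 with no treatment term. Members among them numbered 1, and 18, 2, 0, 1, 0, 0, 0 and 2. For day 5 minus day 3 the calls numbered 1, and 80 with normexp, 8 with quantile normalization, 2 with the mean of all probes, 0 with no filter and 79 with no treatment term. For day 7 minus day 5 they numbered 0, and 2 with normexp, 1 with the mean of all probes and 3 with no treatment term. Leaving out each array in turn gave 0 to 561 calls for day 7 minus day 3 (0 to 17 members), 0 to 215 for day 5 minus day 3 and 0 to 9 for day 7 minus day 5. Where an array is left out, the lone array of its day is assumed to vary like those of the other days. The cause of these shifts was not tested. No paired analysis by replicate number was possible because each treatment and day has 1 sample, and the additive terms for day and treatment already set HPD against Control within each day. With 1 array per treatment and day, no member's difference has a replicate, and for the 78 members below -2 the size of the difference depends on the background correction.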
